A study of Mus musculus with 4 samples.

Results

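The potassium channel interacting proteins are encoded by Kcnip1, Kcnip2, Kcnip3 and Kcnip4, and all 4 genes were found by symbol among the 32286 counted features. They were followed in single nuclei of mouse brain across cell classes and between the genotypes of the series. The genes were picked with earlier results of these data known, among them a higher Kcnip1 in astrocytes and in oligodendrocyte precursor cells (OPCs). The genotype values in those classes, and in the related Bergmann glia, are therefore given as a description with no p.

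The samples were 4 libraries of nuclei from snap-frozen hemispheres of C57BL/6 mice at postnatal day 14, prepared with droplet-based 3′ chemistry. Both groups carried Slc17a6-Cre, which is active in neurons expressing the vesicular glutamate transporter VGLUT2. The 2 libraries labelled WT had unaltered Ago2 (Ago2 wt/wt), and the 2 labelled cKO had both Ago2 alleles floxed (Ago2 flox/flox). Ago2, an Argonaute, carries miRNAs to the mRNAs they repress, and the comparison asks what its deletion in excitatory neurons changes. Controls without Cre were not analysed here. The labels do not say that the 2 libraries of a group are from different mice, so p-values here reflect only differences between libraries, which may be technical.

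The libraries held 10845009 to 29317266 UMIs (unique molecular identifiers, each counting 1 captured RNA molecule) in 3472 to 6752 barcodes, and 15511 of 17802 nuclei were kept. WT replicate 2 was the deepest, and 37 barcodes occurred in more than 1 library. The limit on mitochondrial UMIs (under 5%) removed 17.8% of barcodes in WT replicate 1, against 5.64% to 8.78% in the others. Kept nuclei of WT replicate 1 had a median mitochondrial share of 0.51%, against 0.12% to 0.15%. In its astrocytes this share was 1.28%, against 0.23% to 0.30%. The part of this difference in the results was not tested. Clustering gave 26 clusters, of which 22 were named from marker genes into 18 classes. The names mean "like" the named type and are used in plain form. In glutamatergic nuclei Ago2 was at 71.5 and 79.0 CPM (counts-per-million, the gene's UMIs scaled to the class total) in the WT libraries and at 108 and 97.2 in the cKO libraries, so the label was not matched by a lower count of the targeted gene. In the class named from markers of Slc17a6 neurons (a cluster led by Synpo2, Lef1 and Ntng1), Ago2 was at 50.3 and 70.3 CPM in WT and at 36.2 and 64.0 in cKO, from 4 to 31 UMIs a library. These are 3′ counts, and whether they fall in the deleted part was not given in the sources used here, so they do not check the deletion. The Cre feature had 0 UMIs in every library, which allows a level of up to 0.102 to 0.277 CPM. WT and cKO below always mean the libraries so labelled.

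The KChIP proteins are small cytosolic calcium-binding proteins of the neuronal calcium sensor family. They bind the pore-forming Kv4 subunits (Kcnd genes) of A-type potassium channels, bring them to the cell surface and alter how fast they inactivate. The transmembrane partners Dpp6 and Dpp10 join the same complex. Kcnip3 is also known as calsenilin or DREAM, for binding to presenilins and for calcium-dependent repression of transcription.

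All 4 genes lie on the minus strand in GENCODE M21 on GRCm38, and they differ greatly in length. Kcnip1 (ENSMUSG00000053519) spans 363.8 kb at chr11:33629339-33993152. Kcnip2 (ENSMUSG00000025221) spans 24.2 kb at chr19:45791839-45816061. Kcnip3 (ENSMUSG00000079056) spans 65.6 kb at chr2:127456498-127522094, and Kcnip4 (ENSMUSG00000029088) spans 1135 kb at chr5:48389502-49524907. The longest coding transcripts differ far less, from 2.32 kb (Kcnip1) to 2.73 kb (Kcnip3). Per kb of gene span, the mean level in glutamatergic nuclei was 9.21 CPM for Kcnip4, 2.83 for Kcnip2, 2.66 for Kcnip3 and 0.159 for Kcnip1. Per kb of the longest coding transcript it was 4366, 28.6, 63.8 and 24.9 CPM in the same order. Kcnip4 led on both scales, while Kcnip2 and Kcnip3 changed places. Nuclear RNA holds introns, and whether intronic reads were counted was not given in the sources used here, so neither scale is exact and levels are otherwise compared only within a gene.

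Because Ago2 acts through miRNAs, the longest 3′ UTR among the coding transcripts of each gene was searched on the transcript strand for 8mer sites. An 8mer is a match to miRNA bases 2 to 8 followed by A. The search covered 15 brain miRNAs with an entry in RefSeq's table for GRCm38.p6. The neuronal miRNA miR-124-3p was listed too but had no entry under that name, so its sites were not searched. Kcnip1 and Kcnip2 had no 8mer for these 15. Kcnip3 had 1 site for miR-125b-5p and 2 for miR-218-5p, and Kcnip4 had 1 site for miR-30a-5p. The 3 miRNAs and the 4 sites are shown 5′ to 3′, with the seed or the site in capitals. They are the only 8mer matches in the family for the miRNAs searched.
miR-125b-5p: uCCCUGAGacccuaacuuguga
Kcnip3, chr2:127456764-127456793, minus strand: gttctccctggCTCAGGGAccccctgtccc
miR-218-5p: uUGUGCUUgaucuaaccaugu
Kcnip3, chr2:127457377-127457406, minus strand: ccaagacaaaaAAGCACAAactcctagcag
Kcnip3, chr2:127457217-127457246, minus strand: ccaacattctaAAGCACAAacctgcggatt
miR-30a-5p: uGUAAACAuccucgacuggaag
Kcnip4, chr5:48390149-48390178, minus strand: caaaccaaggaTGTTTACAgacttgccaag
Of 21028 genes' 3′ UTRs, of any length, 4.59% held the miR-125b-5p 8mer, 3.92% the miR-218-5p 8mer and 6.79% the miR-30a-5p 8mer. A match describes these letters only, and binding was not measured.

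Kcnip1 was at its highest in Purkinje nuclei, then in GABAergic nuclei, OPCs and choroid plexus. In Purkinje nuclei it reached 4762 and 5242 CPM in the WT libraries and 4762 in cKO replicate 1, from 15 nuclei in 3 libraries. In GABAergic nuclei it was at 778 and 662 CPM in WT and at 721 and 691 in cKO, so the groups overlapped. The remaining neuronal classes were far lower, with mean levels between 41.9 CPM in cerebellar interneurons and 146 in cerebellar granule nuclei. Oligodendrocytes had the lowest mean, 22.7 ± 10.0 CPM (SD, n = 4).

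The GABAergic class held 3 clusters, and Kcnip1 was above 400 CPM in each library of all of them. The cluster led by Vip, Lhx6, Sst and Npy, genes of cortical interneurons, had 915 and 780 CPM in WT and 826 and 1176 in cKO. The cluster led by Cpa6, Tshz1 and Gng4 had 741, 600, 683 and 530 CPM in WT replicates 1 and 2 and cKO replicates 1 and 2. The cluster led by Dlx6os1, Dlx1 and Igfbpl1 had 663, 403, 696 and 598 CPM in that order. Among glutamatergic clusters, the one led by Hs3st4 and Col5a1 was highest, at 125, 151, 166 and 203 CPM. An unnamed cluster of 1581 neuronal nuclei led by Glra1, which encodes a glycine receptor subunit, had 387, 352, 421 and 383 CPM.

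Kcnip2 was highest in striatal spiny nuclei, where all 4 libraries lay within a narrow range. The values were 206 and 230 CPM in WT and 204 and 214 in cKO. GABAergic nuclei followed with 92.8 ± 19.1 CPM and glutamatergic nuclei with 68.5 ± 6.47 (SD, n = 4), whose ranges did not reach the neighbour above. Within the glutamatergic class, the cluster led by Tspan18, C1ql3 and Iqgap2 had the most, at 145 and 140 CPM in WT and 91.5 and 110 in cKO. Each of the other 15 classes averaged under 24 CPM, with 165 UMIs in granule nuclei and fewer elsewhere, and neighbours in that order overlapped.

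Kcnip3, in contrast to Kcnip1, was higher in astrocytes than in GABAergic nuclei. It was highest in OPCs, at 834 and 494 CPM in WT and 424 and 481 in cKO, and next in astrocytes, at 336 and 308 in WT and 417 and 408 in cKO. Bergmann glia, cerebellar interneurons and cerebellar granule nuclei followed with means of 279, 273 and 252 CPM, and their ranges overlapped. GABAergic nuclei had 61.2 ± 15.4 CPM and oligodendrocytes 16.8 ± 11.6 (SD, n = 4). Along the oligodendrocyte lineage the mean thus ran from 558 CPM in OPCs to 39.0 in committed precursors and 16.8 in oligodendrocytes. Kcnip1 ran from 418 to 54.1 and 22.7 CPM over the same classes.

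Kcnip4 was the most abundant by count, and among named classes it was highest in the Slc17a6 neurons, named for the Cre driver gene. Its level there was 20889 and 22644 CPM in WT and 19800 and 19728 in cKO, from 112 nuclei. The larger unnamed cluster led by Glra1 scored highest for the same markers but stayed unnamed, as Glra1 is listed for glycinergic neurons, and had 5592 and 5799 CPM of Kcnip4 in WT and 4910 and 5710 in cKO. Glutamatergic nuclei had 10498 and 11937 CPM in WT and 8240 and 11131 in cKO. Granule nuclei had 8572 and 10941 CPM in WT and 4074 and 7649 in cKO, and these 2 classes overlapped in the order. Striatal spiny nuclei followed at 5483 ± 720 CPM (SD, n = 4).

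Non-neuronal classes held 1142 to 3029 CPM of Kcnip4. Microglia, a type that should lack it, had 2128 and 3482 CPM in WT and 2158 and 3317 in cKO. After thinning each nucleus to 1000 UMIs, 81.5% to 93.8% of microglial nuclei had a Kcnip4 UMI, against 93.6% to 97.9% of glutamatergic and 60.6% to 76.1% of oligodendrocyte nuclei. Unthinned shares were 88.6% to 97.1%, 98.1% to 100% and 87.8% to 98.4%, at median depths per library of 1112 to 1449, 3336 to 7674 and 2736 to 3697 UMIs. Kcnip4 in classes at or under the microglial level is therefore given as a count and not read as expression.

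**Figure D1:**
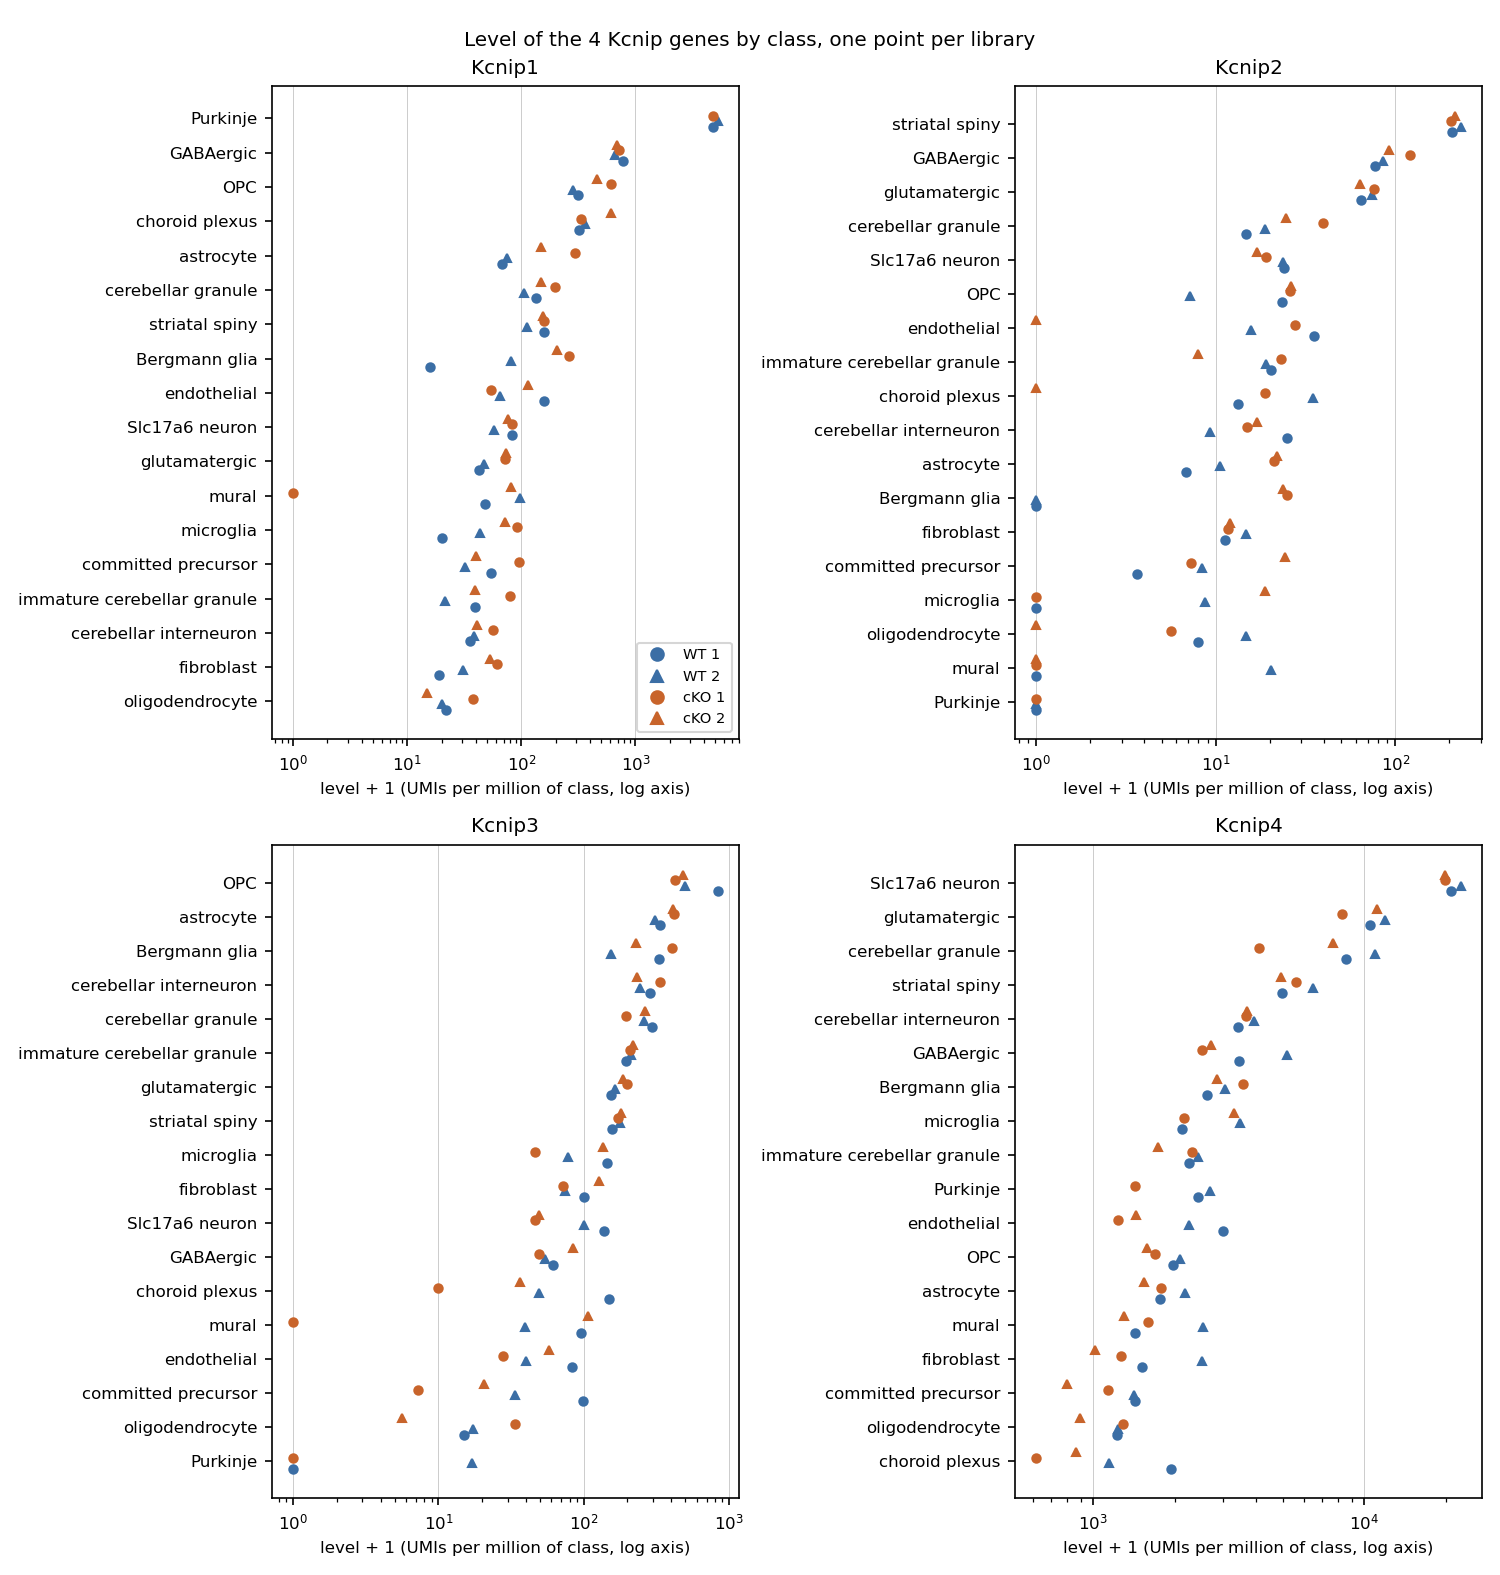
Each panel plots 1 gene, with the level plus 1 in CPM on a log axis and 1 point per library (blue for WT, orange for cKO, circles for replicate 1, triangles for replicate 2), classes ordered by mean. Purkinje nuclei lead for Kcnip1, striatal spiny nuclei for Kcnip2 (204 to 230 CPM), OPCs for Kcnip3 and Slc17a6 neurons for Kcnip4 (19728 to 22644 CPM).

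The pattern of each gene over the 18 class means was compared with that of 12123 genes by Pearson's r of log2(CPM + 1). The 5 closest to Kcnip1 were Gm12120 (r = 0.89), an antisense gene inside Kcnip1 at chr11:33705550-33711435, and Tmem255a, Gm44957, Gm44812 and Akain1 (r = 0.80 to 0.82). For Kcnip2 they were Htr4, a serotonin receptor gene (r = 0.93), the potassium channel genes Kcnj4 and Kcnh3 (r = 0.92 each), Gm30648 and Prkar2b (r = 0.91 and 0.90). For Kcnip3 they were Gm29514 (r = 0.90), Gm47423, 4930578G10Rik, 9630014M24Rik and Ntrk2, the receptor for brain-derived neurotrophic factor (r = 0.87). For Kcnip4 they were Gm12027 (r = 0.91), Nrg3, the RNA-binding protein gene Rbfox1, the presynaptic scaffold gene Bsn, and Thy1 (r = 0.82). The class means share libraries and differ in depth, and the coefficients are descriptions with no test.

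Kcnip1 was higher in cKO than in WT astrocytes. Astrocytes had 66.5 and 73.1 CPM in WT and 296 and 148 CPM in cKO, from 57 and 92 UMIs in WT and 222 and 107 in cKO. Both cKO libraries lay above both WT libraries and cKO replicate 1 was the higher of the 2. The fitted log2 change was 1.63 (SE 0.28), and without cKO replicate 1 it was 1.05. In these nuclei 22.1% of 9109 genes had both cKO libraries above both WT libraries, and 1.59% passed the edgeR test in either direction, values that are printed as background because Kcnip1 was chosen on this contrast.

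OPCs had 312 and 285 CPM of Kcnip1 in WT and 614 and 463 in cKO, again without overlap. The log2 change was 0.85 (SE 0.17), and leaving out 1 library at a time it stayed between 0.65 and 1.05. In OPCs 17.2% of 6325 genes were separated in this direction and 0.0632% passed the test in either direction. Bergmann glia had 14.8 and 80.1 CPM in WT and 263 and 205 in cKO, but from only 1 and 11 UMIs in WT and 11 and 9 in cKO. Their log2 change was 1.98 (SE 0.85), where 20.5% of 1109 genes were separated upwards and 0.541% passed the test.

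The astrocyte difference was present in both astrocyte clusters that formed at a Leiden resolution of 2. The cluster led by Slc6a11 and Etnppl had 86.9 and 88.7 CPM in WT and 298 and 180 in cKO. The cluster led by Otc, Nr2e1 and Emx2os had 53.3 and 55.4 CPM in WT and 303 and 108 in cKO. The log2 changes were 1.44 (SE 0.26) and 1.83 (SE 0.34).

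A larger share of astrocytes and of OPCs carried a Kcnip1 UMI in the cKO libraries. After thinning to 1000 UMIs, 6.11% and 5.71% of WT astrocytes and 22.5% and 12.3% of cKO astrocytes had a Kcnip1 UMI, and 23.1% and 22.6% of WT OPCs against 41.7% and 36.1% of cKO OPCs. The unthinned shares were 11.9% and 13.1% against 39.8% and 18.2% in astrocytes, and 44.5% and 51.2% against 71.4% and 66.3% in OPCs. In microglia the thinned share was 2.74% to 7.69%, a range that includes both WT astrocyte values. In oligodendrocytes it was at most 2.82%. Thinning left out 9, 4, 17 and 31 astrocytes and 0, 0, 1 and 6 OPCs in WT replicates 1 and 2 and cKO replicates 1 and 2, with 13, 20, 13 and 34 microglia. At most 10 UMIs came from 1 astrocyte (in cKO replicate 1), so no single nucleus made up the sum.

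**Figure D2:**
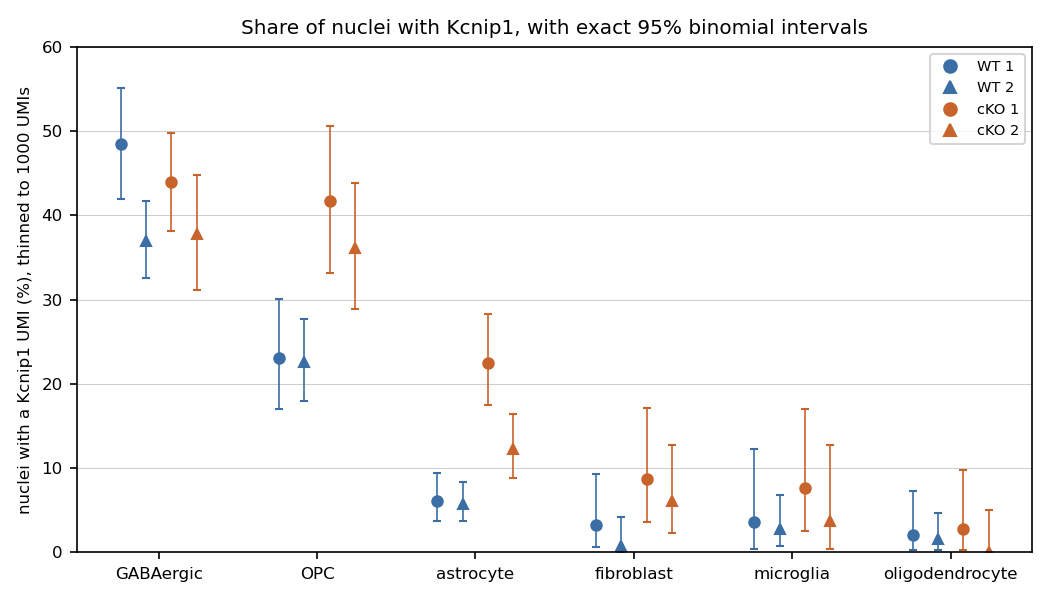
Share of nuclei with at least 1 Kcnip1 UMI after thinning each nucleus to 1000 UMIs, in percent, by class, with 1 point per library (blue WT, orange cKO, circles replicate 1, triangles replicate 2) and exact 95% binomial intervals that cover counting error only. In astrocytes WT is at 5.71% and 6.11% and cKO at 12.3% and 22.5%.

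Kcnip1 in microglia was 19.0 and 42.1 CPM in WT and 90.2 and 71.3 in cKO, from 13 UMIs in WT and 20 in cKO, too few for the filter. In a low-depth unnamed cluster led by Mbp, Fth1 and ribosomal genes it was 157 and 63.9 in WT and 293 and 235 in cKO. Over all kept nuclei of a library it was 194 and 187 in WT and 297 and 232 in cKO. A list of 10 neuronal markers, all of them detected, summed to 878 and 1210 CPM in WT astrocytes and 1146 and 1076 in cKO astrocytes. In OPCs the list summed to 1457 to 1458 against 1476 to 1585. It joined Rbfox3, Snap25, Syt1, Stmn2 and Celf4 with markers of particular neuron types (Gad1, Gad2, Slc17a7, Slc17a6 and Gabra6). The sums hide changes in both directions. In astrocytes 4 of the 9 fitted were positive and 5 negative, and in OPCs 6 of 8 were positive and 2 negative. Gad1 and Gad2, genes of GABA synthesis, summed to 46.5 and 83.9 CPM in WT and 22.9 and 46.9 in cKO astrocytes with a Kcnip1 UMI, from 7 to 17 UMIs a library. In those without one they summed to 49.5 and 40.7 CPM in WT and 36.4 and 26.2 in cKO, so nuclei with a Kcnip1 UMI had more in WT replicate 2 and cKO replicate 2 and less in the other libraries. The part of these in the result was not tested.

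The genes that overlap Kcnip1 were nearly absent from astrocytes. Gm12120 had 0 UMIs in both WT libraries and 3 and 1 in cKO, Gm12119 had 0 in all 4, and Kcnmb1 and 4930469K13Rik had 2 UMIs each in all. Whether counting used strand was not given in the sources used here, so reads of a gene and its antisense partner may not be told apart.

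**Figure D3:**
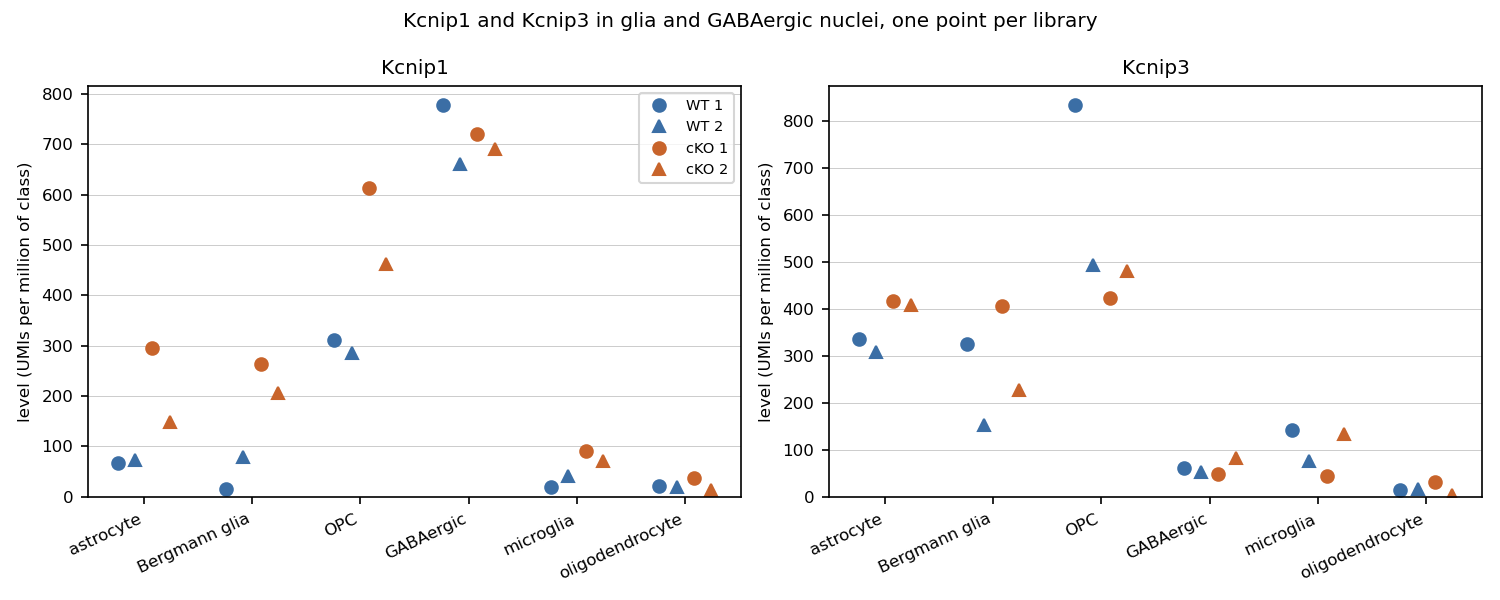
Level of Kcnip1 (left) and Kcnip3 (right) in CPM, 1 point per library (blue WT, orange cKO, circles replicate 1, triangles replicate 2), in 4 glial classes, microglia and GABAergic nuclei included for reference. Kcnip1 is higher in both cKO libraries of astrocytes, Bergmann glia, OPCs and microglia, and GABAergic nuclei and oligodendrocytes overlap between groups. The microglial values rest on 13 UMIs in WT and 20 in cKO, and 19.4% of genes tested there were separated upwards.

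Over the 14 classes with at least 20 nuclei in each library, the 4 genes made 56 pairs of gene and class. Of these, 12 did not pass the filter on low counts, and 33 were tested outside astrocytes, Bergmann glia and OPCs. None passed an adjusted p of 0.05 in the edgeR quasi-likelihood test, 11 had an unadjusted p under 0.05, and DESeq2 gave 0 and 8. Over all genes in those 11 classes, edgeR gave an unadjusted p under 0.05 in 5.7% of 69511 pairs of gene and class. By comparison with these calls, a separation of the groups was common among all genes: in oligodendrocytes 20.9% and in striatal spiny nuclei 21.4% of genes had both cKO libraries above both WT libraries. Few genes of any kind passed in those classes: the share called was 0.139% in oligodendrocytes, 0.0595% in endothelial nuclei, 0.0422% in striatal spiny nuclei, 0.0179% in glutamatergic nuclei and 0% in the rest.

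Kcnip1 had a positive fitted change in 10 of its 12 fitted classes and in 7 of the 9 tested ones. The tally depended on single libraries: without WT replicate 1 all 12 were positive, and without WT replicate 2 there were 9. Microglia, not through the filter, also had more in both cKO libraries (means of 30.5 CPM in WT and 80.8 in cKO), where 19.4% of genes were separated upwards. Glutamatergic, committed precursor, immature granule, cerebellar interneuron and fibroblast nuclei had means of 57.7, 54.1, 43.9, 41.9 and 40.1 CPM, near the 55.7 of microglia. The part of shared background in the tally was not tested. In glutamatergic nuclei Kcnip1 was at 41.7 and 46.3 CPM in WT and 71.0 and 71.9 in cKO, without overlap, where 19.9% of genes were separated this way. The log2 change was 0.64 (SE 0.18, adjusted p = 0.691 by edgeR). In granule nuclei it was at 134 and 105 CPM in WT and 197 and 148 in cKO (a log2 difference of 0.56 with SE 0.18 and an adjusted p of 0.55 in edgeR), where 16.1% of genes were separated upwards. In fibroblasts it was at 17.9 and 29.9 CPM in WT and 60.8 and 52.0 in cKO, from 20 and 36 UMIs per group, where 15.3% were. The exceptions were endothelial nuclei, with a log2 change of -0.25 (SE 0.54), and GABAergic nuclei, with -0.05 (SE 0.16), and without WT replicate 1 they were at 0.46 and 0.04. Committed precursors, at 0.59, were at -0.04 without cKO replicate 1, and striatal spiny nuclei, at 0.21, were at -0.06 without WT replicate 2.

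The difference between the glutamatergic and the GABAergic effect on Kcnip1 was 0.64 (SE 0.20) on the log2 scale, with an unadjusted p of 0.00369 and an adjusted p of 0.449 in edgeR's interaction test, where 0.0336% of 11907 genes were called. For Kcnip4 it was 0.42 (SE 0.18, adjusted p = 0.713), for Kcnip2 -0.43 (SE 0.22, adjusted p = 0.786) and for Kcnip3 0.01 (SE 0.26, adjusted p = 1), all from the same edgeR fit. No member passed, which does not show that the effects are alike.

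Kcnip4 had a negative fitted change in 13 of 14 classes, Bergmann glia (0.11, SE 0.26) being the exception, and in all 11 tested classes, none past the threshold. Mean levels in immature granule nuclei, endothelial nuclei, OPCs, astrocytes, fibroblasts, committed precursors and oligodendrocytes lay under the microglial 2771 CPM. In those classes and in microglia the direction is given as a count and not read as expression. The part of shared background was not tested. Without WT replicate 2 Kcnip4 was negative in 10 of 14, with microglia at 0.33, cerebellar interneurons at 0.08 and striatal spiny nuclei at 0.05. Bergmann glia were at -0.04 without WT replicate 1 and at -0.05 without cKO replicate 1. Both cKO libraries lay below both WT libraries in 6 classes. Besides granule and GABAergic nuclei these were committed precursors, OPCs, endothelial nuclei and fibroblasts, where 16.9%, 17.9%, 18.1% and 19.3% of genes were separated downwards. In granule nuclei the log2 change was -0.73 (SE 0.23, adjusted p = 0.53 by edgeR), where 18.8% of genes were separated downwards, and cKO replicate 1 was the low library. Without it the change was -0.33. With the replicate number as a block in edgeR the granule value was -0.79, with an adjusted p of 0.000926. That block called 51 of 9704 genes in granule nuclei, where 0 were called without it. The numbers are not stated to mark litters or batches.

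GABAergic nuclei had 3452 and 5183 CPM of Kcnip4 in WT and 2517 and 2712 in cKO (a log2 difference of -0.76 with SE 0.20 and an adjusted p of 0.832 in edgeR), where 14.9% of genes were separated downwards. The difference was -0.41 without WT replicate 2 and -1.04 without WT replicate 1. The Vip and Lhx6 cluster, the richest in Kcnip4 of the 3, made up 22.0% and 32.6% of the GABAergic nuclei in WT and 20.1% and 14.04% in cKO. Within it the values were 6787 and 8240 CPM in WT and 5172 and 5921 in cKO. The cluster led by Dlx6os1 and Dlx1 had 2729 and 2562 CPM in WT and 1589 and 1948 in cKO. The Cpa6 and Tshz1 cluster had 1613 and 1683 CPM in WT and 1750 and 1700 in cKO. Over all kept nuclei Kcnip4 was at 5871 and 7611 CPM in WT and 4487 and 5719 in cKO, and in endothelial nuclei, where it is near the level in microglia, at 3018 and 2263 in WT and 1231 and 1441 in cKO. Their part in the GABAergic difference was not tested.

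Kcnip3 showed no common direction. In astrocytes the cKO libraries were above both WT libraries by a log2 change of 0.33 (SE 0.14), and in OPCs below both by -0.53 (SE 0.19), where 22.1% and 17.9% of genes were separated in those directions. The OPC difference rested on WT replicate 1, which at 834 CPM stood above the other 3 libraries, and without it the change was -0.14. In committed precursors Kcnip3 was at 97.5 and 32.6 CPM in WT and 6.25 and 19.5 in cKO, from 59 and 6 UMIs (log2 change -2.07, SE 0.73, adjusted p = 0.944 by edgeR), and 16.9% of genes were separated downwards. Kcnip2 was at 5.83 and 9.54 CPM in WT astrocytes and 20.03 and 20.8 in cKO, from 17 and 30 UMIs (log2 change 1.31, SE 0.45). In striatal spiny nuclei, where it was highest, its log2 change was -0.13 (SE 0.18, adjusted p = 0.987 by edgeR). Of the 6 classes with a fit for Kcnip2, 4 had both cKO libraries above both WT libraries and 2 overlapped. The 4 were astrocytes, OPCs, GABAergic and granule nuclei, where 22.1%, 17.2%, 18.6% and 16.1% of genes were separated upwards. In granule nuclei its log2 change was 0.94 (SE 0.30, adjusted p = 0.55 by edgeR), from 85 UMIs in WT and 80 in cKO.

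**Figure D4:**
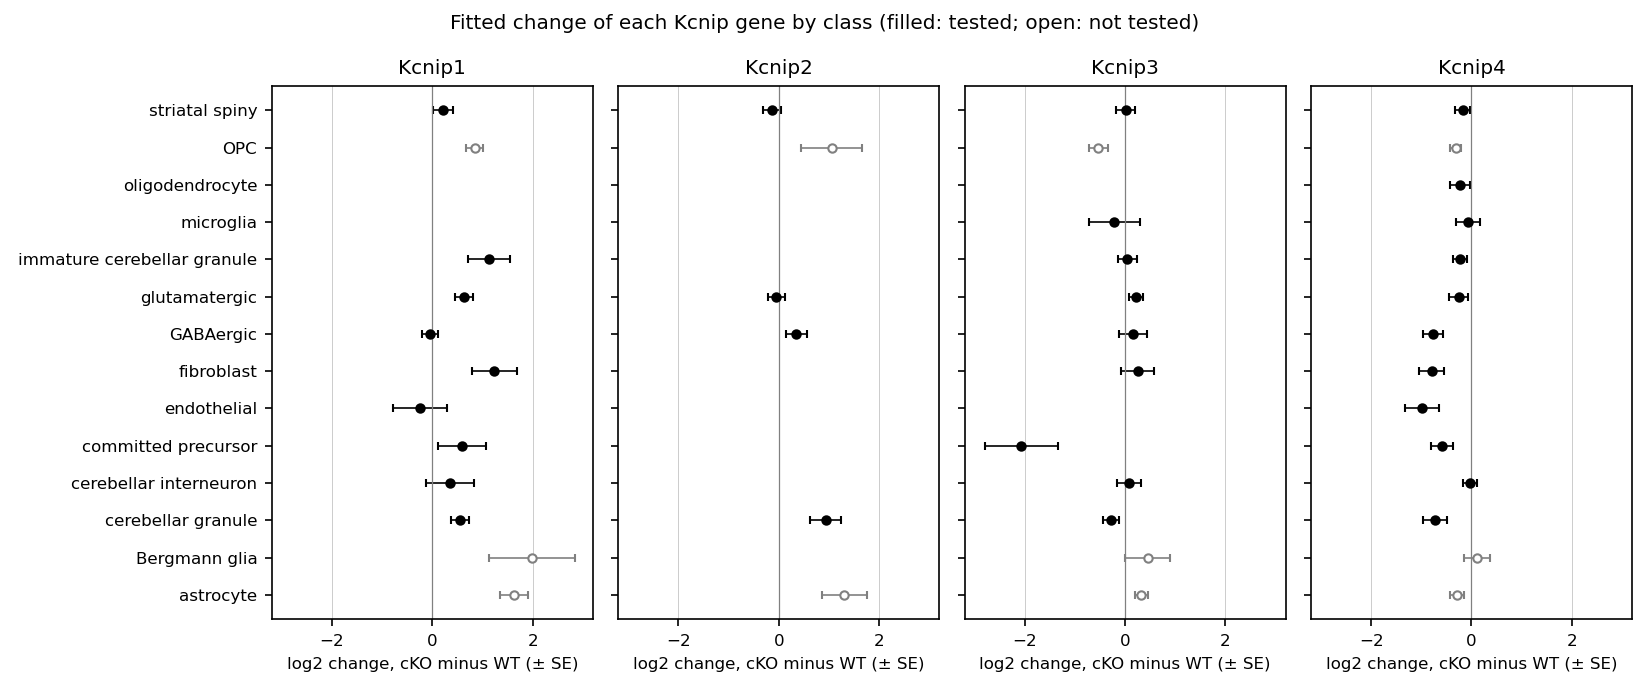
Fitted log2 change of each gene, cKO minus WT, with standard errors, for the classes in which the gene passed the filter; filled points were tested and open points (astrocytes, Bergmann glia, OPCs) were not. With all 4 libraries Kcnip4 lies below 0 in every class but Bergmann glia and Kcnip1 above 0 in 10 of 12, and without WT replicate 2 these are 10 of 14 and 9 of 12. Several of these classes hold Kcnip1 or Kcnip4 at or near the level in microglia.

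The genes that work with the KChIP proteins were given the same test, and none passed an adjusted p of 0.05 in any of the 14 classes. Of all genes only 0% to 1.59% passed per class, so this does not show that they were unchanged. The unadjusted counts below cover all 14 classes. The edgeR share over all genes was 5.7% in the 11 classes outside astrocytes, Bergmann glia and OPCs, and it is not given for those. Of the Kv4 pore subunits, Kcnd2 was highest in granule nuclei (9031 and 9241 CPM in WT, 7434 and 8886 in cKO) and reached 4670 to 5874 CPM in OPCs. Kcnd3 was highest in cerebellar interneurons, at 805 to 941 CPM, and Kcnd1 stayed under 29 CPM in every class. Their 28 pairs with a class split evenly, 14 positive and 14 negative, with 0 at an unadjusted p under 0.05. Together the Kv4 subunits summed to 2844 and 3197 CPM in WT astrocytes and 3508 and 3181 in cKO astrocytes, so the groups overlapped.

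Dpp10 was highest in glutamatergic nuclei, at 8465 to 10195 CPM, and Dpp6 in granule nuclei, at 2775 to 3869. Of their 28 pairs 9 were positive and 19 negative, and 5 had an unadjusted p under 0.05, 1 of them in astrocytes and 1 in Bergmann glia. Among 7 other calcium sensors of the family, Ncald was most abundant in OPCs, at 748 to 874 CPM. Its fitted change in granule nuclei was 0.55 (SE 0.12, adjusted p = 0.285 by edgeR). The sensors made 47 pairs, 31 positive and 16 negative, with 3 at an unadjusted p under 0.05. The 18 other Kv pore subunits made 149 pairs, 53 positive and 96 negative, with 11, 1 of them in OPCs. Of the presenilin genes and the reported Kcnip3 targets Pdyn and Fos, 13 pairs were fitted, 7 positive and 6 negative, with 1. The median over all genes tested lay within 0.015 of 0 (log2) in each class.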

How the data were processed

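Gene counts per nucleus barcode were deposited as whole UMI counts, made with Cell Ranger 4.0.0 per the file headers, and the submitters' processing notes name Seurat 3.2.3 and GRCm38. The intron setting and annotation release are not given in the sources used here. Filters kept barcodes of 500 UMIs or more with a mitochondrial share under 5%, and doublets were removed from Scrublet scores at 0.8% per 1000 barcodes, since its automatic threshold marked 1 to 6 a library. Clusters came from scanpy 1.11.5 (2000 variable genes, 30 components, 15 neighbours, Leiden resolution 1) and were named from at least 3 detected markers. Counts were summed per library and class and tested with edgeR 4.0.16 (filterByExpr, TMM, quasi-likelihood, two-sided) over all genes of a class, with Benjamini-Hochberg adjustment at 0.05, after the script was tested on simulated data. Levels are CPM of the class sum. DESeq2 1.42.0 and other settings were alternatives. An exact two-sided permutation test of 2 libraries against 2 cannot go below 0.333. Intervals cover counting error only. Replicate numbers are not stated to mark litters or batches, so the main fits used no block. Deviations of same-numbered libraries correlated by -0.13 to 0.06 across classes. With 2 libraries a group this cannot show whether such libraries were prepared together. Members and gene lists were chosen with earlier results of these data known. The named genes are the 4 members, genes of the lists, and for each member the 5 with the highest r among genes of at least 20 CPM in a class.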

Additional observations from a re-analysis of the deposited data

Results flagged for a closer look

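The fitted Kcnip3 change had opposite signs in 2 pairs of classes in which the groups did not overlap. The log2 change, cKO minus WT, was 0.33 in astrocytes and 0.21 in glutamatergic nuclei, where both cKO libraries lay above both WT libraries, as did 22.1% and 19.9% of all genes there. It was -0.53 in OPCs and -2.07 in committed precursors, where both lay below, as did 17.9% and 16.9% of all genes. In the other 8 of the 12 fitted classes the groups overlapped. The OPC value was -0.14 without WT replicate 1. Neither tested class passed with all libraries (adjusted p = 0.976 in glutamatergic nuclei and 0.944 in committed precursors, edgeR). Leaving out 1 library at a time, the committed precursor value ran from -3.23 to -1.60. The difference between these classes was not tested.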

How the results depend on the processing

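No pair of gene and class was past the threshold with all libraries, so none could lose a call. Signs reversed in 43 combinations of a result and a setting, none of them with a call, and the cause was not tested. Not all of these changes were near 0 with all libraries. Kcnip1 was at 0.59 in committed precursors, and Kcnip3 at 0.45 in Bergmann glia and 0.25 in fibroblasts. Leaving out 1 library, the log2 change ran for Kcnip1 from -1.02 to 0.46 in endothelial, -0.15 to 0.042 in GABAergic, -0.063 to 0.42 in striatal spiny and -0.040 to 1.18 in committed precursor nuclei. For Kcnip2 it ran from -0.16 to 0.12 in glutamatergic nuclei. For Kcnip3 it ran from -0.24 to 0.59 in fibroblasts, -0.26 to 0.54 in GABAergic nuclei, -1.15 to 0.38 in microglia, -0.020 to 0.14 in immature granule nuclei, -0.077 to 0.13 in striatal spiny nuclei and -0.22 to 0.33 in cerebellar interneurons, and its difference in effect from -0.36 to 0.42. For Kcnip4 it ran from -0.16 to 0.083 in cerebellar interneurons, -0.43 to 0.33 in microglia and -0.37 to 0.046 in striatal spiny nuclei. With no mitochondrial maximum Kcnip3 was at -0.28 in fibroblasts, Kcnip4 at 0.24 in microglia, Kcnip1 and Kcnip3 at -0.076 and -0.031 in striatal spiny nuclei, and the Kcnip3 difference in effect at -0.072. With doublets kept Kcnip4 was at 0.086 in cerebellar interneurons and 0.061 in microglia, Kcnip1 at 0.036 in GABAergic nuclei, and Kcnip3 at -0.0051 in immature granule and -0.019 in striatal spiny nuclei. At resolution 2 Kcnip1 was at 0.082 in endothelial and -0.13 in striatal spiny nuclei, Kcnip4 at 0.067 in microglia and Kcnip3 at -0.057 in striatal spiny nuclei. With the 4 genes left out before clustering Kcnip1 was at 0.082 in endothelial, 0.0012 in GABAergic and -0.0077 in striatal spiny nuclei, Kcnip3 at -0.054 in immature granule and -0.045 in striatal spiny nuclei, Kcnip4 at 0.041 in microglia, and the Kcnip3 difference in effect at -0.010. In Bergmann glia, which were not tested, Kcnip3 was at -0.17 without WT replicate 2 and Kcnip4 at -0.15 with doublets kept. The count of pairs past the threshold, 0, became 3 with no filter on low counts, 1 with the replicate block and 2 with the crossed replicate block. The crossed block was chosen after seeing the data because deviations of same-numbered libraries correlated at -0.13 in fibroblasts and -0.10 in Bergmann glia. Calls over all genes rose as well in granule nuclei, from 0 of 9704 to 106 of 21116 with no filter. There 51 of 9704 were called with the replicate block and 88 with the crossed block. In GABAergic nuclei 0 of 8686 were called with either block. Fits without 1 library leave a single library in 1 group, so calls from them are not given, for the 4 genes or for all genes. With the replicate block the pair was Kcnip4 in granule nuclei, and no other call of the 4 genes changed. Leaving out 1 library, the Kcnip1 difference in effect between glutamatergic and GABAergic nuclei ran from 0.48 to 0.88. The mean Kcnip2 level in striatal spiny nuclei, 214 CPM, was 237 at resolution 2 and 233 with the 4 genes left out before clustering. Without each library in turn the Kcnip1 change was 1.05 to 2.03 in astrocytes and 1.43 to 3.66 in Bergmann glia. Over the settings that keep all libraries, the number of genes called in astrocytes, 145, ranged from 3 with no mitochondrial maximum to 375 with the crossed replicate block. In OPCs the number, 4, ranged from 1 to 68. The alternative without cycling-led OPC clusters was not run, because no cluster was led by cycling markers. The low counts of Kcnip2 in glia and of Kcnip1 in Bergmann glia and microglia limit what could be seen there.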
